A study of Drosophila melanogaster with 6 samples.

Results

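The Jonah genes encode a family of secreted serine proteases, and 10 of them were followed here in fly embryos that make the transcription factor Sage in most cells. They were Jon25Bi, Jon25Bii, Jon25Biii, Jon44E, Jon65Ai, Jon65Aii, Jon65Aiii, Jon65Aiv, Jon66Ci and Jon74E, each taken by its exact symbol in the platform's probe annotation and each read by 1 probe set of its own, out of 11983 genes measured that way. RNA came from whole Drosophila embryos of stages 11 to 16, hybridised to Affymetrix arrays that give 1 value per probe set. The Sage overexpression group had 3 samples from embryos carrying UAS-Sage under the tub-Gal4 driver, and the wild type group had 3 samples of the Oregon R strain, which the labels also give as the genetic background of the first group. All embryos were aged at 25 C and sorted on a COPAS instrument before extraction. The labels describe the wild type embryos as age matched and do not describe them as carrying the driver or an undriven transgene, so effects of Sage and of the insertions cannot be told apart. Whether the samples came from separate egg collections is not given in the labels, and p-values then reflect the spread among these 6 samples, which may be technical.

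Jonah proteases are chymotrypsin-like enzymes that cut dietary protein in the lumen of the gut. They are made by midgut cells mainly in feeding larvae and adults, and their genes are named after the chromosome band in which they lie, often several side by side. Sage is a basic helix-loop-helix factor of the embryonic salivary gland, a different part of the digestive system, and the tub-Gal4 driver is active in most cells. The comparison asks which genes respond when Sage is made throughout the embryo.

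The sage probe set read 12.17, 12.31 and 12.28 in the Sage overexpression samples, against 7.68, 8.08 and 7.40 in wild type, on the log2 scale used for all values here. The Sage arrays correlated with each other at 0.989 to 0.996 across probe sets, the wild type arrays at 0.975 to 0.994, and arrays of different groups at 0.960 to 0.983. The arrays carry 70 control probe sets taken to have no fly target, and their group means lay between 3.23 and 5.35. A gene with a mean inside that range cannot be distinguished from background, and its fold change is not exact. The midgut was represented in both groups by GATAe and mex1, named outside the rule given with the processing. GATAe, a GATA factor of the endoderm, averaged 9.72 ± 0.03 in Sage overexpression and 9.40 ± 0.41 in wild type (SD, n = 3 each). The gene mex1, of the midgut epithelium, averaged 11.18 ± 0.07 and 11.41 ± 0.32 in the same order. Both means were in the range of the controls for 3 of 13 midgut differentiation genes and 0 of 8 midgut regulators, beside 31.7% of all genes.

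The Jonah genes showed no common direction, with 7 positive and 3 negative differences, beside 5863 and 6120 of all 11983 genes. Of the 10, 1 fell (Jon44E) and 0 rose in limma's test at an adjusted p under 0.05 over all genes. Among all 11983 genes 3.72% fell and 4.36% rose, so the share of members that passed lies near the background. At an unadjusted p under 0.05, limma put 3 members higher and 2 lower in Sage overexpression, where 11.7% and 12.8% of all genes did so. The groups did not overlap for 5 members, 3 higher (Jon25Bii, Jon65Aiv and Jon66Ci) and 2 lower (Jon44E and Jon25Bi), beside 15.7% and 16.1% of all genes. The median log2 difference, Sage overexpression minus wild type, was 0.06 over the 10 and -0.01 over all genes. Of the 10 members 4 had both group means in the range of the controls, namely Jon25Bi, Jon65Ai, Jon65Aii and Jon74E, and 31.7% of all genes did. The other 6 were above that range in at least 1 group.

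**Figure D1:**
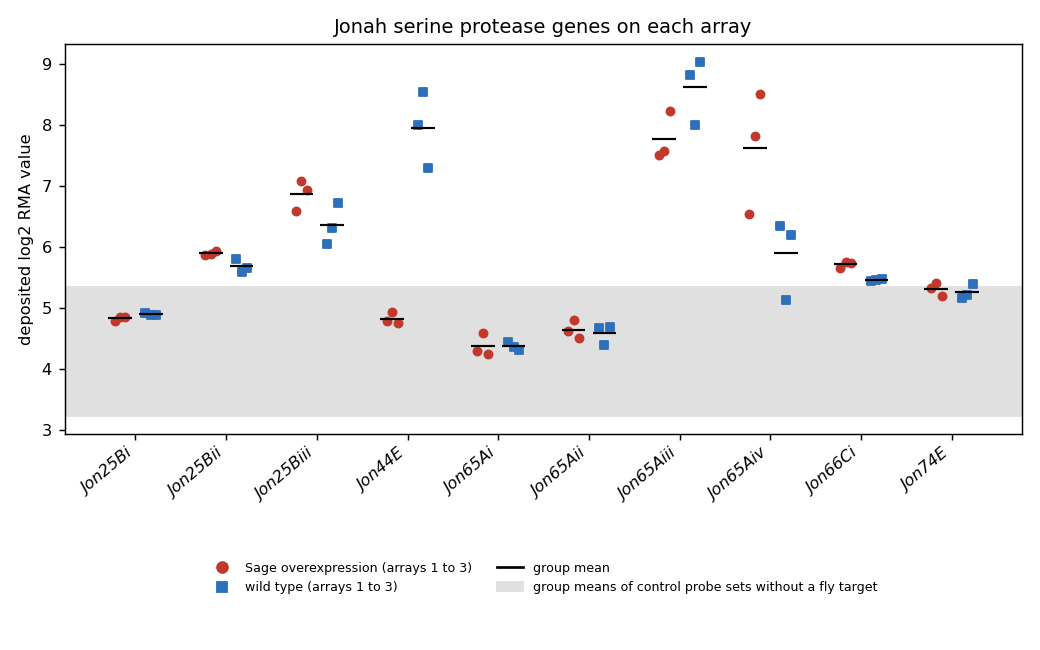
Deposited log2 values of the 10 Jonah genes on each array, with Sage overexpression (circles) left of wild type (squares), group means as black lines and the range of the controls in grey. Jon44E lay at 4.75 to 4.94 in Sage overexpression, inside the grey band, and at 7.29 to 8.54 in wild type, above it.

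Jon44E had the lowest log2 difference of all 11983 genes. It read 4.80, 4.94 and 4.75 in the Sage overexpression samples, against 8.0, 8.54 and 7.29 in wild type. Every Sage overexpression value was within the range of the controls, and every wild type value was above it. The log2 difference was -3.11 (SE 0.30, limma adjusted p 0.00266), and because the Sage overexpression mean of 4.83 is at background the size of the fall is not exact. The spread was also unequal, with an SD of 0.10 in Sage overexpression and 0.63 in wild type. The call held when any 1 array was left out, with log2 differences from -3.44 to -2.82 and adjusted p-values up to 0.0254. In whole embryos, fewer cells that make a transcript and less transcript per cell cannot be told apart.

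The gene that follows Jon44E on the chromosome fell as well. CG8586, whose span overlaps that of Jon44E in the gene table, read 6.19, 6.09 and 6.14 in Sage overexpression, against 6.98, 7.92 and 7.06 in wild type. The groups did not overlap, and wild type array 2 was the highest for both genes. CG8586 fell by 1.18 on the log2 scale (SE 0.25, limma adjusted p 0.0378), a call lost without any 1 of the Sage overexpression arrays or without wild type array 3 (adjusted p up to 0.151). The probe positions of both genes were not analysed here, so a transcript read by both probe sets was not tested. The measured gene on the other side, CG30355, averaged 4.14 ± 0.12 in Sage overexpression and 4.08 ± 0.10 in wild type, both in the range of the controls.

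**Figure D2:**
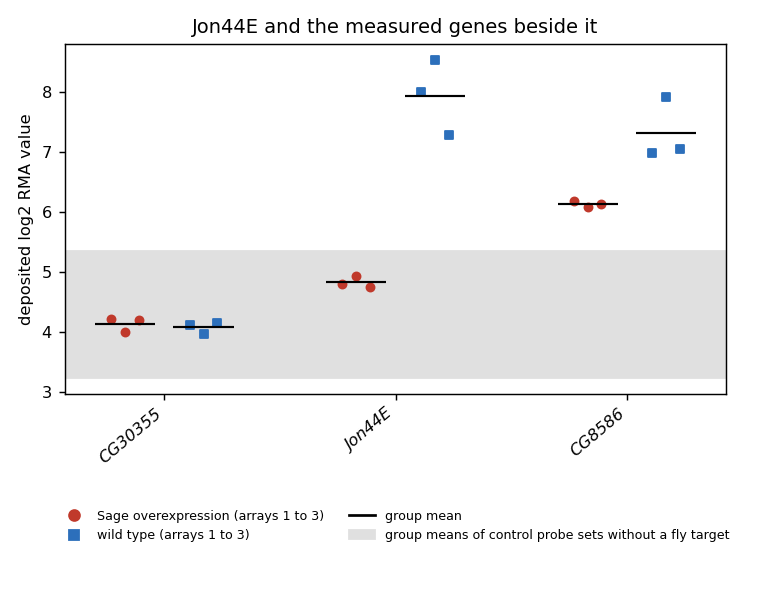
Deposited log2 values of Jon44E and of the measured genes on either side of it, in chromosome order and not to scale, with Sage overexpression (circles) left of wild type (squares), group means as black lines and the range of the controls in grey. Jon44E and CG8586 were lower on all 3 Sage overexpression arrays than on any wild type array, while the values of CG30355 overlapped inside the grey band.

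Band 65A holds 4 of the members, and the pair above background there had differences of opposite sign, neither past the adjusted threshold. Jon65Aiv read 6.55, 7.83 and 8.50 in Sage overexpression, against 6.35, 5.13 and 6.20 in wild type. The groups did not overlap, but Sage overexpression array 1 lay close to wild type arrays 1 and 3. The log2 difference was 1.73 (SE 0.54, 95% confidence interval 0.43 to 3.03), a 3.32-fold higher mean, and limma's adjusted p of 0.111 did not pass. Jon65Aiv had the 90th highest difference of all genes and the widest interval of the 10 members. Without 1 array the difference ranged from 1.29 to 2.27 and passed in none of those fits (adjusted p 0.0631 or higher), whereas with array weights, where 16.8% of all genes rose and 17.1% fell, it passed at 0.0164.

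Jon65Aiii, the next gene along, read 7.50, 7.57 and 8.23 in Sage overexpression, against 8.82, 8.01 and 9.04 in wild type. The groups overlapped, since Sage overexpression array 3 lay above wild type array 2. The log2 difference of -0.85 (SE 0.32, interval -1.61 to -0.10) had a limma adjusted p of 0.159. With the replicate number as a block, where 7.39% of all genes fell and 7.35% rose, it passed (limma adjusted p 0.0341). It also passed without wild type array 2 (log2 difference -1.16, adjusted p 0.0219), where 6.62% fell and 7.15% rose, and with array weights (adjusted p 0.0226). Whether Jon65Aiv and Jon65Aiii differed in response was not tested, because the pair was chosen after the values were seen.

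Jon65Aii averaged 4.65 ± 0.15 in Sage overexpression and 4.58 ± 0.16 in wild type. Jon65Ai averaged 4.38 ± 0.19 and 4.37 ± 0.06 in the same order. They follow Jon65Aiii in that order along the chromosome, and both stayed within the range of the controls on all 6 arrays. The 95% confidence intervals of their log2 differences, -0.25 to 0.38 for Jon65Aii and -0.28 to 0.30 for Jon65Ai, describe signals at background and do not bound a change in transcript.

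The same stretch of chromosome holds other protease genes, described here after their values were seen. Of 12 genes from CG10477 to CG10472 in the gene table, 10 were measured. The gene yip7, an annotated serine protease gene, read 6.26, 7.97 and 8.17 in Sage overexpression, against 6.49, 5.31 and 5.93 in wild type, a log2 difference of 1.55 (SE 0.55, limma adjusted p 0.144). Its groups overlapped because Sage overexpression array 1 lay below wild type array 1, and without that Sage overexpression array the difference was 2.16 (adjusted p 0.0440). CG10472, at the far end of the stretch, read 7.66, 8.05 and 8.89 in Sage overexpression, against 6.89, 6.24 and 6.91 in wild type. CG10472 rose 2.86-fold (log2 difference 1.52, SE 0.34, limma adjusted p 0.0459), and the call was kept in the fit without wild type array 2 but missed in each fit without another array (adjusted p up to 0.133).

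Among the other genes of the stretch, CG6462 averaged 4.54 in Sage overexpression and 4.43 in wild type, and CG10477 averaged 5.20 in both groups, all in the range of the controls, as was CG6592 with 4.86 in Sage overexpression and 4.91 in wild type. The gene tant, which follows Jon65Ai, averaged 8.65 ± 0.07 in Sage overexpression and 9.06 ± 0.18 in wild type (log2 difference -0.41, SE 0.12, limma adjusted p 0.0906).

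**Figure D3:**
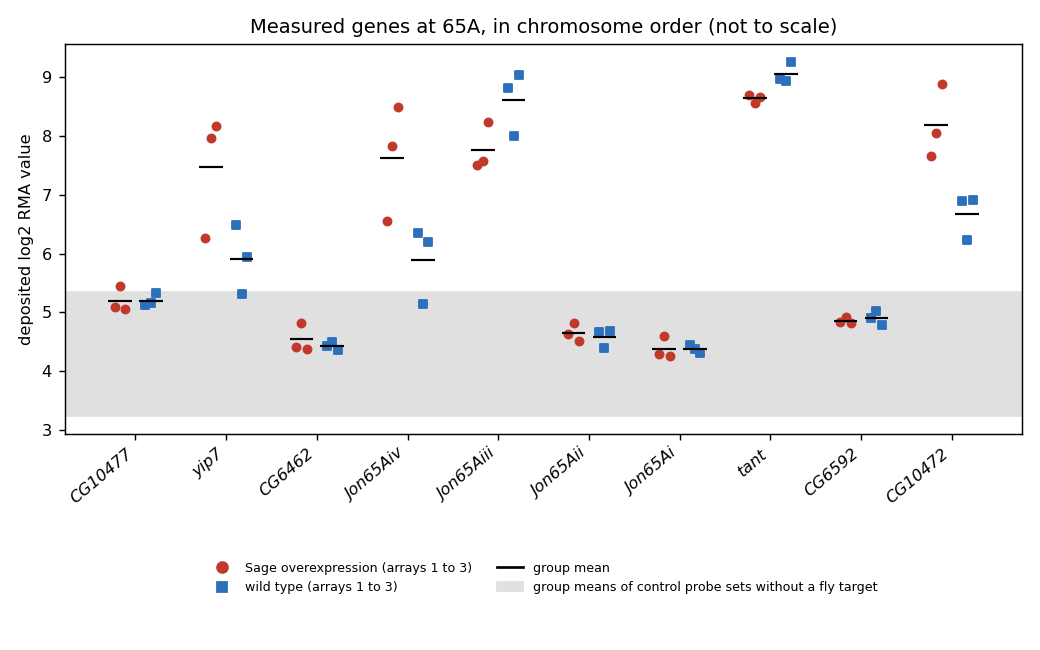
Deposited log2 values of the 10 measured genes from CG10477 to CG10472, in chromosome order and not to scale, with Sage overexpression (circles) left of wild type (squares), group means as black lines and the range of the controls in grey. Means of yip7, Jon65Aiv and CG10472 were higher in Sage overexpression and that of Jon65Aiii lower, while 5 genes, CG10477, CG6462, Jon65Aii, Jon65Ai and CG6592, had both means inside the grey band.

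The 3 genes of band 25B differed by less. Jon25Biii read 6.58, 7.08 and 6.93 in Sage overexpression, against 6.05, 6.31 and 6.72 in wild type. The groups overlapped on 1 array of each, and the log2 difference of 0.51 (SE 0.21, interval 0.01 to 1.0) had a limma adjusted p of 0.195, which passed only with array weights (adjusted p 0.0098) among the alternatives run. Jon25Bii read 5.87, 5.89 and 5.93 in Sage overexpression, against 5.81, 5.59 and 5.65 in wild type. These groups did not overlap, and the log2 difference was 0.21 (SE 0.10, limma adjusted p 0.249). Jon25Bi, in the range of the controls, averaged 4.83 ± 0.04 in Sage overexpression and 4.90 ± 0.01 in wild type (limma adjusted p 0.725), so its lower values in all Sage overexpression samples amount to a difference of -0.06. The measured genes on either side, jet and Marcal1, had log2 differences of 0.12 and -0.34 (limma adjusted p 0.651 and 0.210).

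Jon66Ci and Jon74E were read close to background. Jon66Ci read 5.66, 5.76 and 5.74 in Sage overexpression, against 5.44, 5.46 and 5.47 in wild type. All 6 values lay just above the range of the controls and the groups did not overlap. Its log2 difference was 0.26 (SE 0.09, interval 0.05 to 0.47, limma adjusted p 0.125), past the threshold with array weights (adjusted p 0.0129). Of the genes that flank it and its neighbour Jon66Cii, CG7120 read 5.99, 6.20 and 5.98 in Sage overexpression, against 6.61, 6.62 and 6.46 in wild type, and fell by 0.51 on the log2 scale (SE 0.11, limma adjusted p 0.0404), a call kept without wild type array 2 and lost without any other array (adjusted p up to 0.179). The mean of both CG7120 probe sets had a log2 difference of -0.27 (limma adjusted p 0.132). ImpE1 on the other side had a log2 difference of 0.57 (limma adjusted p 0.550). Jon74E averaged 5.31 ± 0.10 in Sage overexpression and 5.26 ± 0.12 in wild type (limma adjusted p 0.827), both in the range of the controls. Its neighbours Nedd4 and CG7542 had log2 differences of -0.50 and -0.01 (limma adjusted p 0.107 and 0.980).

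**Figure D4:**
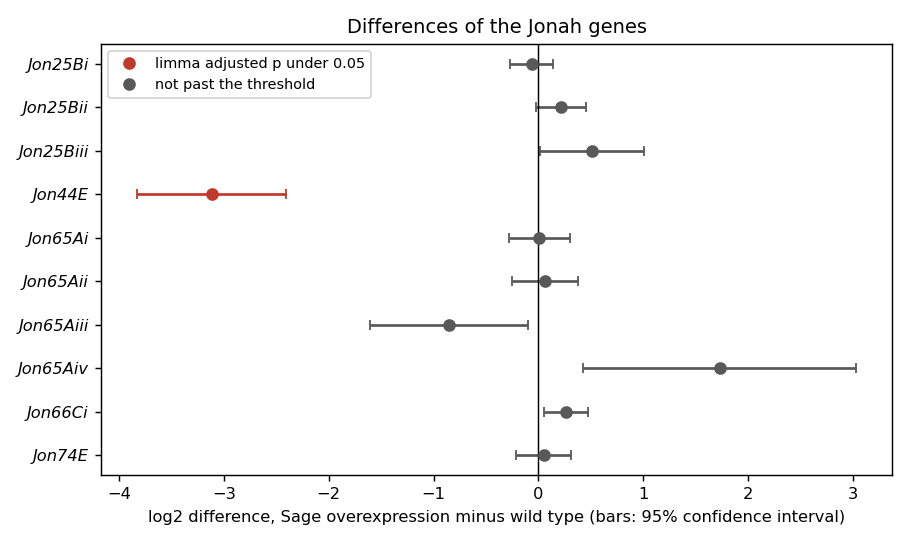
Log2 differences of the 10 Jonah genes, Sage overexpression minus wild type, with 95% confidence intervals from limma. The interval of Jon44E runs from -3.83 to -2.40, that of Jon65Aiv from 0.43 to 3.03 and that of Jon65Aiii from -1.61 to -0.10, and only Jon44E passed the adjusted threshold.

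The gene table holds 6 further Jonah genes, of which 3 had a probe set of their own, and 0 of the 3 passed limma's adjusted threshold. At an unadjusted p under 0.05 limma put 1 lower, Jon99Fi, and 0 higher in Sage overexpression. Of all genes 12.8% were lower and 11.7% higher at that p. Jon66Cii averaged 5.09 ± 0.21 in Sage overexpression and 5.25 ± 0.23 in wild type, and Jon99Ci averaged 4.89 ± 0.31 and 4.78 ± 0.15 in the same order. Jon99Fi read 3.14, 3.02 and 3.07 in Sage overexpression, against 3.82, 3.19 and 3.88 in wild type (log2 difference -0.55, SE 0.19, limma adjusted p 0.144; 0.0051 without wild type array 2). All 3 genes had means no higher than the range of the controls.

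Some genes of other digestive enzymes rose, where 4.36% of all genes rose and 3.72% fell. Of 10 measured midgut trypsin genes, which cut after basic residues, 2 rose and 0 fell, with a median log2 difference of 0.23. lambdaTry read 9.79, 9.88 and 10.34 in Sage overexpression, against 8.21, 8.14 and 8.28 in wild type, and rose 3.48-fold (limma adjusted p 0.00221). alphaTry averaged 7.08 ± 0.16 in Sage overexpression and 5.93 ± 0.16 in wild type and rose 2.21-fold (limma adjusted p 0.00571). Both trypsin calls held when any 1 array was left out. Of 17 other serine protease genes of the digestive type 1 rose, CG10472, and 0 fell, near the shares of all genes. The list had a median of 0.10, and 13 of the 17 had both means in the range of the controls. The number that rose was 2 without Sage overexpression array 1 (2.17% of all genes). It was 0 without array 2 or 3 of that group (1.88% and 1.66%) or wild type array 1 or 3 (2.59% and 3.5%). With array weights 4 rose and 1 fell, beside 16.8% and 17.1% of all genes. Whether trypsin and Jonah genes differ in response was not tested.

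Among 18 measured amylase, maltase, lipase and lysozyme genes 3 rose and 0 fell, beside 4.36% and 3.72% of all genes. The median log2 difference was 0.03. The maltase gene Mal-B1 read 8.68, 8.26 and 8.43 in Sage overexpression, against 5.44, 5.93 and 6.43 in wild type, and rose 5.76-fold (limma adjusted p 0.00332). Mal-A2, another maltase gene, rose 2.34-fold (limma adjusted p 0.0456), a call kept only in the fit without wild type array 2 among those that leave out 1 array (adjusted p up to 0.143). The lysozyme gene LysP averaged 4.29 ± 0.13 in Sage overexpression and 3.65 ± 0.05 in wild type (limma adjusted p 0.0170), both in the range of the controls, and missed the threshold without Sage overexpression array 1 or 2 (adjusted p up to 0.0786). The list had 1 gene raised without either of these arrays (2.17% and 1.88% of all genes) and 5 without wild type array 2 (7.15%). With the replicate block 4 rose and 1 fell, beside 7.35% and 7.39% of all genes.

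**Figure D5:**
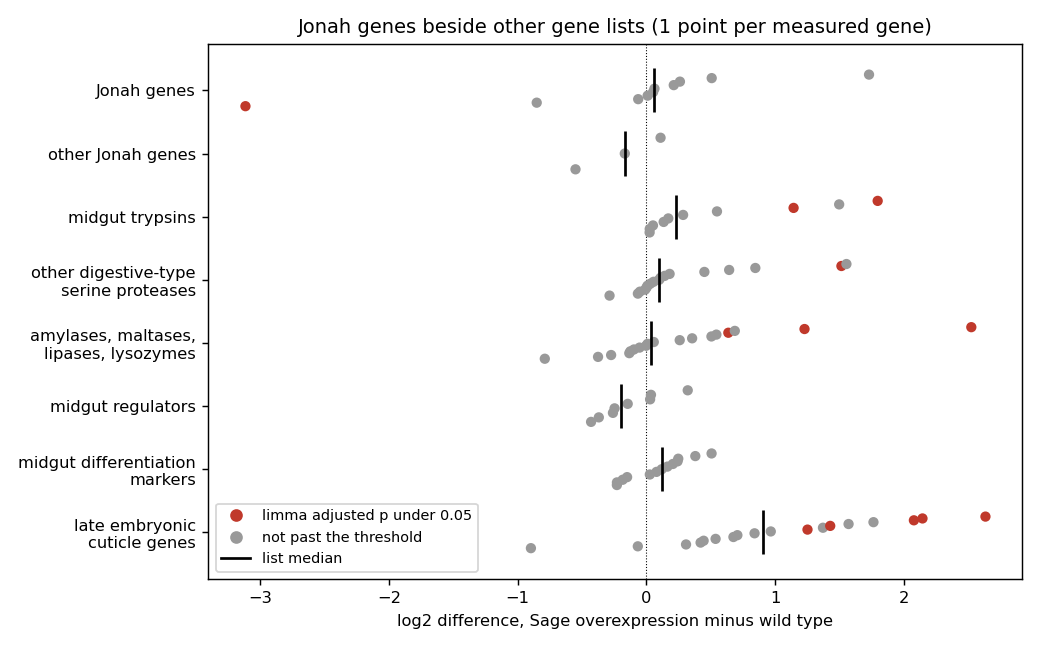
Log2 differences, Sage overexpression minus wild type, of every measured gene in 8 lists, 1 point per gene, with genes past limma's adjusted p of 0.05 in red and list medians as black lines. The Jonah genes spread from -3.11 to 1.73 around a median of 0.06, and the late embryonic cuticle genes have a median of 0.90.

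Calls in the 2 midgut lists, regulators and differentiation genes, depended on the fit, as did the share of all genes called. Of 8 midgut regulators 0 passed limma's adjusted threshold, with a median log2 difference of -0.20, and the smallest p was that of bap, a homeobox gene of the visceral muscle around the gut (7.03 ± 0.03 in Sage overexpression and 7.40 ± 0.08 in wild type, limma adjusted p 0.0593). At an unadjusted p under 0.05 limma put 2 of the regulators lower and 0 higher in Sage overexpression. Of all genes 12.8% were lower and 11.7% higher. The 2 were bap and bin, the latter with a log2 difference of -0.43 (limma adjusted p 0.0997). Differences were positive for 3 of the 8, beside 5863 of all 11983 genes. Among the 3 was the endoderm factor GATAe (log2 difference 0.32, limma adjusted p 0.393). Of the 8, 2 fell without wild type array 2 (6.62% of all genes) and 4 with array weights (17.1%). Of 13 midgut differentiation and brush border genes 0 passed, with a median of 0.12. Before adjustment limma's p was under 0.05 for 2 higher in Sage overexpression and 0 lower, beside 11.7% and 12.8% of all genes. The one with the smallest p, the septate junction gene mesh, averaged 10.53 ± 0.16 in Sage overexpression and 10.02 ± 0.26 in wild type (limma adjusted p 0.111), and passed with the replicate block (limma adjusted p 0.0452). Without wild type array 2, 1 of the 13 fell (6.62% of all genes). With array weights 4 of them rose and 1 fell, beside 16.8% and 17.1% of all genes. Summed on the linear scale, the differentiation list came to 10252 to 11785 in Sage overexpression and 10288 to 10816 in wild type, and the regulators to 2331 to 2560 and 1825 to 3286 in the same order. The summed signal of the 10 Jonah genes was 620 to 1035 in Sage overexpression and 945 to 1073 in wild type. This sum is weighted to the brightest members and includes the signal of members at background. The brightest were Jon65Aiii and Jon44E in wild type (means 8.62 and 7.94). In Sage overexpression they were Jon65Aiii and Jon65Aiv (means 7.77 and 7.63).

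Cuticle genes of the epidermis, listed here as late embryonic and used as markers of age, moved as well. Whether every gene of the list, which includes Edg78E, Edg84A and Edg91, marks embryo age was not tested. Of 18 measured genes of the list 5 rose and 0 fell, beside 4.36% and 3.72% of all genes. The median log2 difference was 0.90. TwdlT, a Tweedle cuticle protein gene, rose 6.21-fold (limma adjusted p 0.00627) and passed without any 1 array. Cpr67Fb, Cpr66D and Cpr65Eb, genes of chitin-binding cuticle proteins, rose 4.42-fold, 4.22-fold and 2.69-fold (limma adjusted p 0.00888, 0.0141 and 0.0153), and missed the threshold in some fits that leave out 1 array. For Cpr67Fb this was the fit without Sage overexpression array 2 (adjusted p 0.0531), for Cpr66D those without any of the Sage overexpression arrays (adjusted p up to 0.0803), and for Cpr65Eb these and the fit without wild type array 1 (adjusted p up to 0.0837). The number of the 18 that rose was 1 without Sage overexpression array 2 (1.88% of all genes) and 8 without wild type array 2 (7.15%). It was 3 without Sage overexpression array 1 or 3, where 2.17% and 1.66% of all genes rose. With the replicate block 8 rose and 1 fell, beside 7.35% and 7.39% of all genes. The summed signal of the list was 40956 to 54074 in Sage overexpression and 14073 to 30564 in wild type. The part of embryo age in the Jonah values was not tested.

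The salivary gland list also moved. It had a median of 0.67 and summed signals of 7131 to 8238 in Sage overexpression and 3517 to 4224 in wild type. Of its 8 measured markers 4 rose and 0 fell, beside 4.36% and 3.72% of all genes. These were sens, a zinc-finger factor (3.85-fold), the prolyl 4-hydroxylase genes PH4alphaSG1 and PH4alphaSG2 (2.82-fold and 2.73-fold), and Papss, which makes a sulphate donor (1.98-fold), with limma adjusted p-values from 9.1e-04 to 0.0375. The other markers, named outside the rule, were fkh, hkb, eyg and pip. Their log2 differences were 0.03, 0.04, 0.20 and 0.35, and none passed. Both fkh and hkb are also counted among the midgut regulators. Without Sage overexpression array 3, 2 of the 8 markers rose, where 1.66% of all genes did. PH4alphaSG2 passed in 1 of the 6 fits that leave out an array, the one without wild type array 2, and its adjusted p otherwise reached 0.139.

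The control RNAs differed between the groups on the same arrays. For the fly transcripts of actin, GAPDH and eIF-4a, which carry control probe sets along their length, the log2 difference was -1.48 to -0.87 at the 5′ end and -0.59 to -0.05 at the 3′ end. The 24 polyA spike-in probe sets, bacterial transcripts added before labelling, had differences from -3.33 to -0.74 with a median of -1.65. The fall of Jon44E was larger than that at any of the 6 probe sets for 5′ ends or the 6 for 3′ ends. It was within the range of the spike-ins, while the median log2 difference over all genes was -0.01. Whether spike-in differences carry over to single fly genes was not tested. The differences of Jon65Aiii and CG8586 were within or below the 5′ range in size and larger than any at the 3′ ends. The part of labelling and RNA quality in these values was not tested.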

How the data were processed

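Arrays of 3 samples of Sage overexpression and 3 of wild type were compared. The deposited table was read as log2 values made by RMA, judged by their range and near-equal array medians (5.44 to 5.52). RMA and Partek are named without versions per the submitters' processing notes. No detection calls, probe positions or sequences were used here.

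Of 18952 probe sets 183 were controls and 13647 were paired with 1 gene, giving 11983 genes, each represented by its brightest probe set. Symbols and gene order came from the Release 6 gene table. Groups were compared with limma 3.58.1 (lmFit, eBayes, two-sided) in R 4.3.3, with Benjamini-Hochberg adjustment over all genes and a threshold of 0.05; figures used Python 3.11.15. The procedure was run on simulated data with noise independent between arrays, unlike the shared deviations of the real arrays described below. It recovered 18% of log2 changes of 0.5, 64% of changes of 1 and 98% of changes of 4. Precision is limited by the number of arrays.

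The members and gene lists were chosen with earlier results of these data known, and list members were matched by symbol. The listed CG6580 is an older name of Jon65Aii and was left out of its list. Named were all members, sage, the measured genes beside Jonah genes and, per list, up to 4 genes past the threshold or the one with the smallest p. The labels number replicates 1 to 3 in both groups, and same-numbered arrays deviated together (correlations of 0.35, 0.68 and 0.36 across genes). This was taken as pairing only in the replicate block below, and the main fit ignored it. Arrays 1 and 3 of opposite groups also deviated together (0.45 and 0.26), so how they pair cannot be told. Alternatives were median centring, quantile normalization, leaving out dim genes, averaging the probe sets of a gene, testing every probe set, array weights, eBayes set to trend and robust, the replicate block, a threshold of 0.01 and leaving out arrays.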

Additional observations from a re-analysis of the deposited data

How the results depend on the processing

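Jon44E passed in all 15 alternatives in which it was tested; with dim genes left out it was not tested, and 0 Jonah genes fell of the 1 still tested. The count of Jonah genes that rose was 0 in every alternative but array weights, with 3. The count that fell was 1 in the others and 2 with array weights, where 16.8% of all genes rose and 17.1% fell, and 2 with the replicate block, where 7.35% rose and 7.39% fell. When 1 array was left out it ranged from 1 to 2, the 2 coming without wild type array 2, where 6.62% of all genes fell. The blocked fit changed the call of Jon65Aiii and mesh among the genes named. It raised the count of cuticle genes that rose to 8. With array weights 4 of 10 trypsin genes, 8 of 18 amylase, maltase, lipase and lysozyme genes, 13 of 18 cuticle genes and 4 of 8 salivary gland markers rose. Near the threshold, CG8586, CG7120 and Irk3 missed it with quantile normalization (adjusted p 0.0533, 0.0809 and 0.0666), CG10472, Mal-A2 and Irk3 with every probe set tested (adjusted p 0.0546, 0.0535 and 0.0542), and CG7120 with eBayes set to trend and robust (adjusted p 0.0668). The cause of these changes was not tested. Counts of the other gene lists moved by over 1.5 times in 64 of 352 cases. Genes at background, among them 4 Jonah genes, limit what the arrays can show.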

Other observations

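Other parts of the gut and the fat body gave few calls. Of 10 measured Malpighian tubule markers 1 fell and 0 rose, beside 3.72% and 4.36% of all genes. The median log2 difference was 0.10, with summed signals of 1732 to 1848 in Sage overexpression and 1477 to 1767 in wild type. The potassium channel gene Irk3 read 5.56, 5.63 and 5.58 in Sage overexpression, against 6.32, 6.89 and 6.14 in wild type, and fell by 0.86 on the log2 scale (limma adjusted p 0.0478), a call that held only without wild type array 2 or 3 among the fits that leave out 1 array (adjusted p up to 0.180). Blocking on the replicate number, 1 of the 10 markers rose and 1 fell, beside 7.35% and 7.39% of all genes.

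All 8 measured hindgut markers had negative differences, beside 6120 of all 11983 genes. They had a median of -0.40 and summed signals of 2178 to 2459 in Sage overexpression and 3330 to 3471 in wild type. Among them byn, named outside the rule, averaged 5.38 ± 0.13 in Sage overexpression and 5.54 ± 0.19 in wild type (log2 difference -0.16, limma adjusted p 0.522). Whether the listed genes mark the hindgut alone in whole embryos was not tested. None passed limma's adjusted threshold. Before adjustment 5 were lower with a limma p under 0.05, beside 12.8% of all genes, and 4 were lower with groups that did not overlap, beside 16.1%. With the replicate block 3 fell (7.39% of all genes), and without wild type array 2 also 3 (6.62%). The count was 1 without wild type array 3 (2.7%) and 7 with array weights (17.1%). The smallest p was that of the homeobox gene otp, at 5.67 ± 0.06 in Sage overexpression and 6.05 ± 0.08 in wild type (limma adjusted p 0.0604). Of 5 fat body markers 0 passed and 1 was higher at an unadjusted limma p under 0.05, beside 11.7% of all genes. The larval serum protein gene Lsp2 had the smallest p. It averaged 5.55 ± 0.07 in Sage overexpression and 5.28 ± 0.06 in wild type (limma adjusted p 0.132).

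The probe set shared by the amylase genes Amy-p and Amy-d, outside the gene counts because it names both, averaged 6.68 in Sage overexpression and 6.56 in wild type (log2 difference 0.12, SE 0.16, limma adjusted p 0.759 over all probe sets).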
